A study of Chlorocebus aethiops with 12 samples.

Results

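A set of 71 transcripts whose RNA at least doubled after dexamethasone (Dex), with and without the partner protein MDFIC, is described here. A probe entered the set when it carried an NM_ accession (a RefSeq transcript), was well above background in every spot on all 12 arrays, and had a mean level with Dex at least 1 log2 unit above the mean level with vehicle both in cells with S211A alone and in S211A+MDFIC cells. The members were thus chosen by the measured Dex changes themselves. A log2 unit is a factor of 2. The level was the log2 signal minus the 75th percentile of the array, so that a level of 0 is the signal at that percentile. Of the 14918 NM_ accessions with a probe well above background on all 12 arrays, 73 met both thresholds. Leaving out 6 accessions listed by the rule, of which NM_016084 and NM_005627 met the thresholds, gave 71 accessions with 78 probes. The smaller change of NM_016084 was 3.62, above the largest change of any member, 3.14. The files used here pair no accession with a gene name, so each transcript is given by its accession, and what its protein does is not stated.

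COS-1 cells, an African green monkey line from kidney with a fibroblast-like shape, were used throughout. All 4 groups had been transfected with S211A, the human glucocorticoid receptor (GR) carrying an alanine in place of the serine at a phosphorylation site, and both S211A+MDFIC groups had received MDFIC as well. One group of each kind was kept with vehicle and the other with 100 nM Dex for 6 h, and each group had 3 biological replicates per the labels. Medium with charcoal-stripped serum, which is depleted of steroids, was given on the day after transfection, and the treatments came on the following day. As a model the system is a transient transfection of a mutant receptor into 1 line, and cells with the unmutated receptor or without a transfected receptor were not analysed here, so that a Dex change cannot be assigned to the mutant receptor alone. The arrays carried human probes, and monkey RNA was measured on them.

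GR is a nuclear receptor that stays in the cytoplasm bound to chaperones until a glucocorticoid binds it. It then enters the nucleus, binds DNA at glucocorticoid response elements or other transcription factors, and raises or lowers the transcription of its target genes. Dex is a synthetic glucocorticoid that activates GR strongly. The serine altered in S211A becomes phosphorylated when hormone binds and is widely used as a mark of the activated receptor. MDFIC, the MyoD family inhibitor domain containing protein, binds transcription factors and has been described as a cytoplasmic partner of GR that is released on hormone binding. The study asked whether MDFIC alters the genes regulated by GR when this site cannot be phosphorylated.

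The share of probes well above background ran from 67.8% to 71.7% on the 4 arrays of slide 1 and from 76.2% to 80.6% on the other 8 arrays. Replicates correlated at r of 0.994 to 0.998 over the NM_ probes well above background. The largest MDFIC effect in the whole fit was that of NM_199072, whose level was higher with MDFIC by 8.70 under vehicle (limma adjusted p = 1.65e-08) and by 8.83 under Dex (limma adjusted p = 1.44e-08). The transfected genes and the markers of COS-1 cells could not be looked up by name and were not analysed here. Whether NM_199072 is the transcript of the transfected MDFIC itself was thus not tested, and its value is not read as a response to MDFIC.

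Doubling by Dex was rare on these arrays. Among the 20515 NM_ probes well above background on all 12 arrays, 108 (0.526%) at least doubled with S211A alone and 119 (0.58%) with MDFIC added. Both thresholds were met by 81 probes (0.395%), which is 75% of the former and 68.1% of the latter. By contrast 6 NM_ probes at least halved in both kinds of cells. In RNA from a whole culture, a larger response per cell and a larger share of responding cells cannot be told apart. Among the 6275 other probes well above background on all 12 arrays, which carry other identifiers and were not eligible, 12 at least doubled in both.

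The median Dex change of the 71 members was 1.25 on the log2 scale in S211A cells, with a range of 1.0 to 2.58. With MDFIC the median was 1.29, with a range of 1.0 to 3.14. Since both contrasts chose the members, these values describe the set and carry no test. The median standard deviation between replicates of a member, pooled over the 4 groups, was 0.11, with a range of 0.03 to 0.28, against a median of 0.10 over all eligible probes. The 3 Dex arrays lay above the 3 vehicle arrays for 71 of 71 members in S211A cells, where this held for 15.5% of all eligible probes, and for 71 of 71 in S211A+MDFIC cells, where it held for 18.6%. The choice of members fixes most of that separation.

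**Figure D1:**
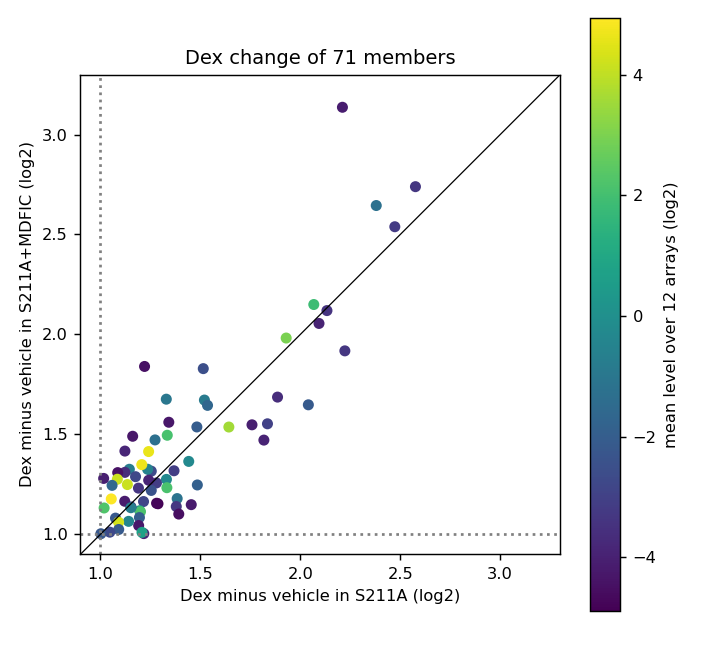
Dex minus vehicle in S211A cells (horizontal axis, log2) against the same difference in S211A+MDFIC cells (vertical axis, log2) for the 71 members, coloured by the mean level over 12 arrays. Dotted lines mark the threshold of 1, the solid line marks equal changes, and NM_000547 at 2.21 and 3.14 lies farthest above it.

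The changes were graded. In 8 members the mean of both changes was at least 2, in 13 it was at least 1.5 and under 2, and in 50 it was under 1.5. NM_000547 had the largest mean change, 2.67. Its level was -5.03, -4.83 and -4.96 on the S211A vehicle arrays and -2.51, -2.85 and -2.83 on the S211A Dex arrays. With MDFIC it was -6.29, -5.86 and -5.80 under vehicle and -2.84, -2.84 and -2.86 under Dex. The Dex levels lay close together in both kinds of cells, while the vehicle levels were lower with MDFIC, with no overlap between the vehicle groups. The corresponding fold changes were 4.63 and 8.79. This probe was also dim under vehicle, with a mean processed signal of 30.0 in S211A and 16.0 in S211A+MDFIC cells.

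NM_002686 was second, with a mean change of 2.66. Its level was -4.63, -4.61 and -4.48 with vehicle and -2.21, -1.90 and -1.88 with Dex in S211A cells. In S211A+MDFIC cells it was -4.63, -4.93 and -4.63 with vehicle and -1.98, -2.06 and -1.95 with Dex. The vehicle groups touched without overlapping, the one with MDFIC being lower, the Dex groups overlapped, and the fold changes were 5.96 and 6.68.

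NM_015193 had a level of -2.42, -2.53 and -2.48 with vehicle and of -0.25, -0.02 and -0.02 with Dex in S211A cells. With MDFIC its level was -2.49, -2.63 and -2.64 under vehicle and 0.13, 0.06 and -0.01 under Dex. Its fold changes were 5.21 and 6.25, and its highest levels were on the S211A+MDFIC Dex arrays.

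NM_000448 changed almost equally in both kinds of cells, by 2.47 and 2.54. In S211A cells it was at -4.38, -4.47 and -4.38 with vehicle and at -1.90, -1.95 and -1.95 with Dex. In S211A+MDFIC cells it was at -4.50, -4.34 and -4.60 with vehicle and at -2.06, -1.73 and -2.04 with Dex. The S211A Dex arrays lay within the range of the S211A+MDFIC Dex arrays.

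The next 4 members by mean change were NM_017434, NM_001039966, NM_001216 and NM_005618. NM_017434 changed by 2.13 and 2.12, and NM_001216 by 2.09 and 2.06. NM_001039966 differed from them in its probe's brightness, with levels of 0.77, 0.87 and 0.87 under vehicle and 2.90, 2.89 and 2.92 under Dex in S211A cells. With MDFIC this transcript stood at 0.72, 0.80 and 0.66 under vehicle and at 2.87, 2.92 and 2.83 under Dex, fold changes of 4.19 without and 4.44 with MDFIC. NM_005618 changed by 2.22 in S211A and by 1.92 in S211A+MDFIC cells, from vehicle means of -4.54 ± 0.21 and -4.18 ± 0.25 (SD, n = 3 each) to Dex means of -2.32 ± 0.09 and -2.26 ± 0.05. Of these 8 members, 7 changed by at least 2 in both kinds of cells, and NM_005618 did so in S211A cells only.

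**Figure D2:**
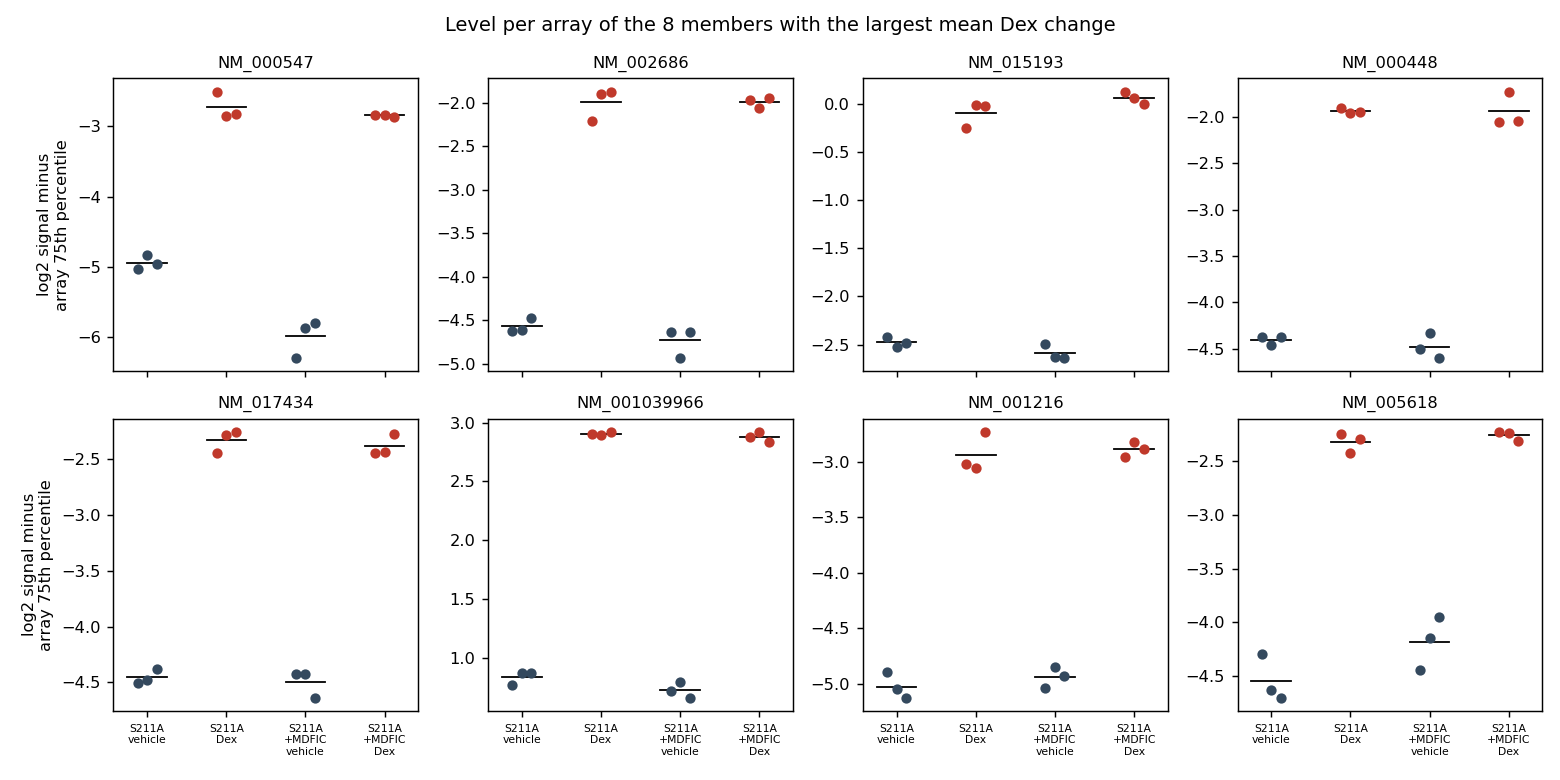
Level per array (log2 signal minus the array's 75th percentile) of the 8 members with the largest mean Dex change, in the 4 groups of 3 arrays. Blue points are vehicle arrays, red points are Dex arrays, and lines are group means. In each panel every Dex array lies above every vehicle array, and the vehicle groups separate for NM_000547.

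The 12 members that followed in this order had mean changes from 1.96 to 1.51. NM_018948 was measured by a bright probe, at 1.87, 1.97 and 1.92 with vehicle and 3.85, 3.83 and 3.86 with Dex in S211A cells. With MDFIC it was at 2.08, 2.09 and 1.89 under vehicle and at 3.88, 4.10 and 4.03 under Dex. Its vehicle groups overlapped, and its Dex arrays were slightly higher with MDFIC, with no overlap. NM_005953 was at 2.78, 2.80 and 2.79 with vehicle and at 4.52, 4.43 and 4.35 with Dex in S211A cells, and at 2.74, 2.78 and 2.77 and then 4.28, 4.47 and 4.15 in S211A+MDFIC cells. Its Dex groups overlapped, and its changes were 1.64 and 1.54.

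NM_007113 changed by 2.04 in S211A and by 1.65 in S211A+MDFIC cells. NM_020945 changed by 1.89 and 1.69, NM_001007538 by 1.84 and 1.55, NM_021096 by 1.76 and 1.55, and NM_001063 by 1.82 and 1.47. These 5 members had the larger value in S211A cells. The larger value was in S211A+MDFIC cells for NM_173549 (1.51 and 1.83), NM_001008540 (1.52 and 1.67), NM_006705 (1.54 and 1.65), NM_182904 (1.22 and 1.84) and NM_002612 (1.48 and 1.54). Their errors are given below for the whole set.

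At the threshold the members shade into transcripts outside it. The 4 members nearest the limit by their smaller change were NM_001024858 (1.0 and 1.0), NM_145028 (1.22 and 1.0), NM_002923 (1.21 and 1.01) and NM_080672 (1.05 and 1.01). The 4 nearest outside were NM_199235 (1.0 and 0.99), NM_001017535 (1.02 and 0.99), NM_001102426 (1.08 and 0.99) and NM_004816 (0.99 and 0.98). A minimum of 0.9 in place of 1 gave 92 accessions, and a minimum of 1.1 gave 56. The 27 eligible probes that doubled in S211A cells only had a median change of 0.69 in S211A+MDFIC cells, where 17 of them reached at least 0.5 and 5 were negative. The 38 that doubled in S211A+MDFIC cells only had a median change of 0.61 in S211A cells, with 23 at 0.5 or more and 4 negative.

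The members were spread over the range of probe brightness but leaned to dim probes. Brightness is no measure of how abundant one transcript is against another. By their S211A vehicle means, 37 of 71 members lay below the first quartile of all eligible probes, and 15 lay above the median. The mean level over the 12 arrays was under -3 for 28 members (39.4%, against 23.8% of all eligible probes), from -3 to under 0 for 28 (39.4% against 36.2%) and 0 or more for 15 (21.1% against 40.0%). The median pooled standard deviation of the members in these bands was 0.159, 0.0958 and 0.0699. Median Dex changes in the bands were 1.32, 1.25 and 1.21 in S211A cells and 1.31, 1.28 and 1.25 in S211A+MDFIC cells. The minimum of 1 in both changes bounds these medians from below, so their likeness is in part set by the rule. Of the 8 members with a mean change of at least 2, however, 6 lay in the dimmest band, which had the largest median standard deviation. The pooled standard deviations of these 6 ran from 0.10 (NM_017434) to 0.17 (NM_005618). The largest of the whole set was 0.28, for NM_145028. Across the 71 members the mean level and the mean Dex change correlated at Pearson's r of -0.14 and Spearman's rho of -0.13. That is a description over members that share the same 12 arrays and were cut at the same minimum change.

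The brightest 7 members, with a mean level of at least 3, were NM_005953, NM_005952, NM_005951, NM_005947, NM_001453, NM_005950 and NM_015508. They were singled out by brightness after their values were seen. Their mean changes ran from 1.08 to 1.59, and their Dex changes differed between the kinds of cells by at most 0.19. NM_005950 was at 4.38, 4.56 and 4.48 with vehicle and 5.56, 5.47 and 5.56 with Dex in S211A cells, and its levels with MDFIC were 4.32, 4.32 and 4.26 and then 5.58, 5.47 and 5.38. NM_015508 was at 3.76, 3.76 and 3.73 with vehicle and at 4.92, 4.83 and 4.78 with Dex in S211A cells, and with MDFIC at 3.70, 3.72 and 3.64 and then at 4.67, 4.79 and 4.79. For both transcripts the Dex groups overlapped between the kinds of cells. No spot on the arrays was saturated.

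**Figure D3:**
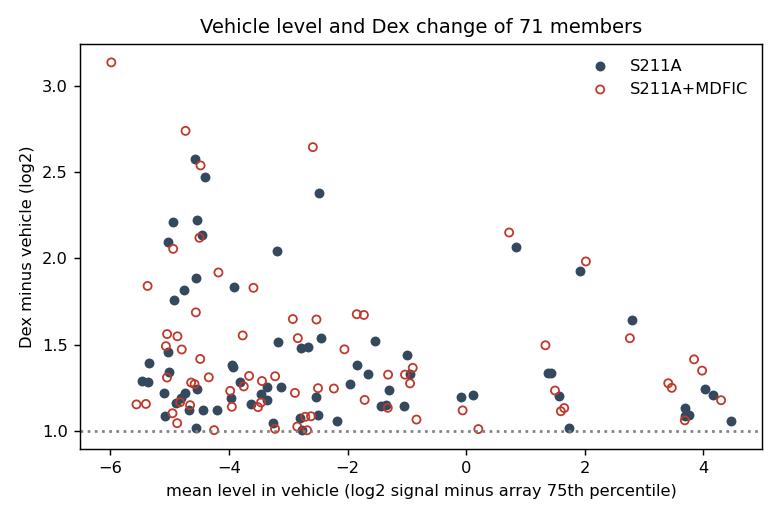
Mean vehicle level (horizontal axis, log2 signal minus the array's 75th percentile) and Dex minus vehicle (vertical axis, log2) of the 71 members. Filled points are S211A cells and open points are S211A+MDFIC cells. The dotted line is the threshold of 1, and the highest open point is NM_000547 at 3.14.

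The response to Dex with and without MDFIC was compared by the difference between both Dex changes. The choice of members used both of these changes and left out the probes that doubled in 1 kind of cell only, so the differences within the set were bounded by that choice, and the counts below describe the set and carry no reading of the MDFIC effect. After Benjamini-Hochberg adjustment over the 31224 probes tested, limma called 0 of the 71 members, and 58 of all probes tested (0.186%). At an unadjusted p under 0.05 it found 7 members (9.86%), against 9.35% of all probes. The Dex change was larger with MDFIC in 36 members and larger without it in 35. The median difference was 0.0008, with a range of -0.39 to 0.93, and the median size of the difference was 0.13 for the members and 0.14 for all probes.

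The precision of that comparison was limited by 3 arrays per group. The half-width of the 95% interval of a member's difference had a median of 0.28 and ran from 0.14 to 0.66. The interval included 0 for 64 members, lay above it for 6 (NM_000547, NM_015193, NM_173549, NM_182904, NM_153690 and NM_130830) and below it for 1 (NM_007113). It lay within -0.5 to 0.5 for 45 members and within -1 to 1 for 69. These intervals, too, hold for members chosen on both changes.

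**Figure D4:**
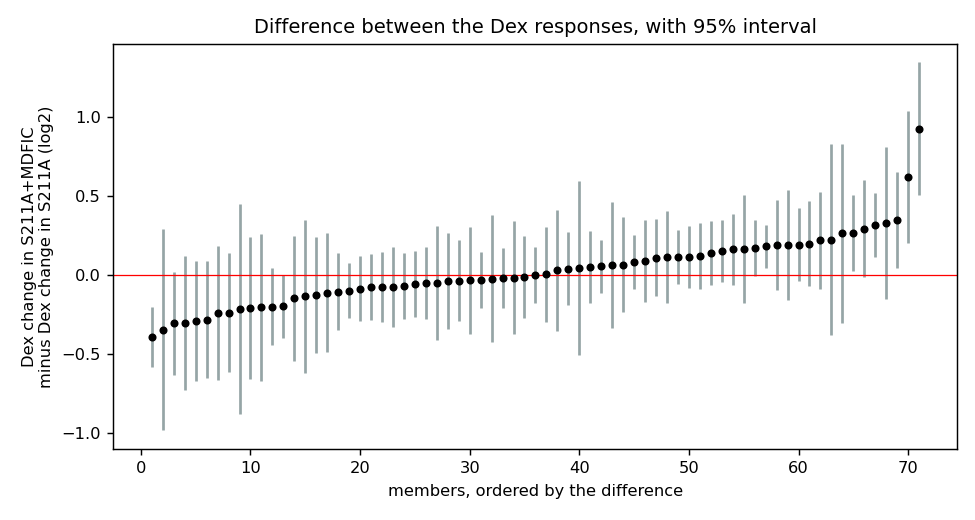
Dex change in S211A+MDFIC cells minus Dex change in S211A cells (vertical axis, log2) for the 71 members, ordered by that difference. Points are the limma estimates and bars their 95% intervals, of which 64 include 0. The farthest point, at 0.93, is NM_000547.

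NM_000547 had the largest difference, 0.93 (SE 0.19, 95% interval 0.51 to 1.34, limma adjusted p = 0.118). As its levels above show, its Dex arrays were alike in both kinds of cells, and the vehicle arrays carried the gap. Normexp background correction, which models the local background, was run with an offset of 50 added to the signal. With normexp this difference was 0.35 (limma adjusted p = 0.527), and with slide as a fixed block it was 0.52 (limma adjusted p = 0.681). The parts of the correction and of the offset in the normexp values were not tested apart. NM_182904 was at -5.26, -4.90 and -5.14 with vehicle and -3.82, -3.96 and -3.84 with Dex in S211A cells, and at -5.30, -5.28 and -5.53 and then -3.26, -3.73 and -3.61 with MDFIC. With MDFIC its Dex arrays lay higher (MDFIC effect 0.34, SE 0.13) and its vehicle arrays lower (MDFIC effect -0.28, SE 0.13). Neither pair of groups overlapped, though the gap between the vehicle groups was narrow. Its Dex changes differed by 0.62 (SE 0.19, limma adjusted p = 0.370). These were the only members with a difference of at least 0.5 in size. The third by size in this direction, NM_153690, changed by 1.33 in S211A and 1.68 in S211A+MDFIC cells, a difference of 0.35 (SE 0.14, limma adjusted p = 0.490).

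Among members with the smaller Dex change with MDFIC, NM_007113 stood first. It was at -3.12, -3.27 and -3.20 with vehicle and -1.19, -1.11 and -1.17 with Dex in S211A cells, and at -2.94, -3.0 and -2.83 with vehicle and -1.23, -1.29 and -1.31 with Dex in S211A+MDFIC cells. Its vehicle arrays were higher and its Dex arrays lower with MDFIC, both without overlap, and the difference was -0.39 (SE 0.09, 95% interval -0.58 to -0.20, limma adjusted p = 0.158), or -0.24 with normexp. NM_001063 had a difference of -0.35 with the widest error of these 6 members (SE 0.28, limma adjusted p = 0.701), and it was -0.05 with normexp and 0.10 with slide as a fixed block. NM_021258 had a difference of -0.31 (SE 0.14, limma adjusted p = 0.545), which was 0.09 with normexp. None of the 6 passed the adjusted threshold.

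The level of the members was next compared between cells with and without MDFIC, under vehicle and under Dex. The arrays of both comparisons had also entered the choice of members. Counts and shares of members set against all probes, under either treatment, thus describe the set and carry no reading of the MDFIC effect. Under vehicle limma called 2 of 71 members, both lower with MDFIC, where 0.753% of all probes were called in either direction and 0.397% lower. At an unadjusted p under 0.05 it found 19 members (26.8%), against 16.1% of all probes. With slide as a fixed block 8 of 71 members and 3193 of 31224 probes passed at that level, and no member was called. The median MDFIC effect under vehicle was -0.03, with a range of -1.04 to 0.49, and 32 members were higher and 39 lower. That balance depended on the processing: without scaling between arrays 56 of 71 members were higher (median 0.10), and with normexp 19 of 71 were (median -0.10). NM_000547 was lower with MDFIC under vehicle by 1.04 on the log2 scale, a value of -1.04 (SE 0.13, limma adjusted p = 0.00822). With normexp the value was -0.43 (limma adjusted p = 0.0683), and with slide as a fixed block it was -0.81 (limma adjusted p = 0.263). With only the vehicle groups in the fit the limma adjusted p was 0.0682. It kept the call in all 12 fits that left out 1 array.

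NM_173549 was the other member called under vehicle. It was at -3.17, -3.10 and -3.26 with vehicle in S211A cells and at -3.61, -3.57 and -3.57 with vehicle in S211A+MDFIC cells, an MDFIC effect of -0.41 (SE 0.06, limma adjusted p = 0.0237). Under Dex its levels were -1.54, -1.69 and -1.76 without and -1.75, -1.73 and -1.79 with MDFIC, and these groups overlapped. The call was lost in 5 of the 12 fits without 1 array, namely without S211A vehicle replicate 1 or 2 or without any 1 of the S211A+MDFIC vehicle replicates (highest limma adjusted p = 0.124), and with slide as a fixed block the value was -0.24 (limma adjusted p = 0.501).

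Under Dex limma again called 2 of 71 members, 1 in each direction, where 0.288% of all probes were called. At an unadjusted p under 0.05 it found 6 members (8.45%), against 12.9% of all probes. The median MDFIC effect under Dex was -0.0058, with a range of -0.41 to 0.35, and 35 members were higher, against 58 of 71 without scaling (median 0.11). NM_001045556 was lower with MDFIC, at -1.46, -1.30 and -1.47 with Dex in S211A cells and at -1.82, -1.85 and -1.80 with Dex in S211A+MDFIC cells, an effect of -0.41 (SE 0.07, limma adjusted p = 0.0400). Under vehicle this transcript was at -2.44, -2.52 and -2.54 without and at -2.89, -2.91 and -2.74 with MDFIC, an effect of -0.35 (SE 0.07, limma adjusted p = 0.0511). The arrays with MDFIC lay lower under both treatments, without overlap, for this probe. The accession's other probe well above background on all 12 arrays had MDFIC effects of the opposite sign, 0.33 under Dex (SE 0.12, limma adjusted p = 0.324) and 0.14 under vehicle (SE 0.12, limma adjusted p = 0.641).

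NM_130830 was higher with MDFIC under Dex, at -0.29, -0.26 and -0.30 without and 0.04, 0.02 and -0.03 with it, an effect of 0.29 (SE 0.04, limma adjusted p = 0.0310). Under vehicle it was at -1.41, -1.45 and -1.42 without and at -1.29, -1.36 and -1.30 with MDFIC. Both pairs of groups were separated, with the wider gap under Dex, and the difference between its Dex responses was 0.18 (SE 0.06, limma adjusted p = 0.438). Both calls under Dex were close to the threshold. That of NM_001045556 was kept in 2 of the 12 fits without 1 array, those without S211A+MDFIC vehicle replicate 3 or without S211A+MDFIC Dex replicate 2 (limma adjusted p = 0.0420 to 0.159 over the 12 fits). That of NM_130830 was kept in 1, that without S211A+MDFIC Dex replicate 2 (limma adjusted p = 0.0357 to 0.141 over the 12 fits).

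Slide was tied to the groups, and no slide held both groups of an MDFIC comparison. All S211A vehicle arrays lay on slide 1, together with S211A Dex replicate 1. Replicates 2 and 3 of S211A Dex shared slide 2 with replicates 1 and 2 of the vehicle group with MDFIC, and the remaining 4 arrays made up slide 3. Within slide 1 the members' Dex change in S211A cells had a median of 1.27, with 66 of 71 at 1 or more and 71 above 0. Within slide 3 the median change with MDFIC was 1.31, with 67 of 71 at 1 or more and 71 above 0. Both within-slide values reuse arrays that chose the members and have 1 array in one arm, so they are a description. Arrays of the same group on different slides differed by a median of -0.0063 over the members for S211A Dex (slide 2 minus slide 1, range -0.47 to 0.40) and of -0.02 for S211A+MDFIC vehicle (slide 3 minus slide 2, range -0.52 to 0.50). For NM_000547 the Dex change was 2.43 within slide 1 and 2.95 within slide 3. For NM_007113 it was 2.01 and 1.56, and for NM_182904 it was 1.27 and 2.00. The part of slide in the MDFIC calls was not tested beyond the fit with slide as a block, in which neither MDFIC comparison called a member.

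Some accessions were measured by more than 1 probe. The array carried 1 probe for 42 members and more for 29, and in 5 of these 29 every probe met the rule. For 6 accessions several probes were members. The 3 probes of NM_005953 changed by 1.64, 1.48 and 1.44 in S211A cells and by 1.54, 1.55 and 1.60 in S211A+MDFIC cells. Those of NM_005952 changed by 1.24 and 1.5 without and by 1.41 and 1.57 with MDFIC. Those of NM_053044 changed by 1.33 and 1.44 without and by 1.5 and 1.65 with MDFIC, and those of NM_001453 by 1.09 and 1.25 without and by 1.28 and 1.23 with it. Those of NM_006200 changed by 1.20 and 1.36 without and by 1.12 and 1.30 with MDFIC. For NM_024979 the values were 1.14 and 1.39 without and 1.07 and 1.03 with it. Each of these probes had to rise by at least 1 in both kinds of cells. Their shared direction was thus fixed by the rule, and their similar size largely so.

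The other 26 probes of 24 member accessions did not meet the rule, and 15 of them were not well above background on all 12 arrays. Of the remaining 11, 8 changed by at least 0.5 in both kinds of cells, such as that of NM_014059, which changed by 1.19 and 0.97, and that of NM_005950, which changed by 0.63 and 0.88. The other 3 changed by under 0.5 in at least 1 kind of cell and therefore disagreed with the member probe.

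The second probe of NM_021096 was at 4.42, 4.01 and 4.23 with vehicle and 3.94, 3.94 and 3.76 with Dex in S211A cells, a change of -0.34. In S211A+MDFIC cells it was at 3.74, 3.68 and 3.88 with vehicle and at 4.32, 4.11 and 4.29 with Dex, a change of 0.47. With Dex it was lower in one kind of cell and higher in the other, without overlap, and the difference between its Dex changes was 0.81 (SE 0.15, limma adjusted p = 0.0883). The member probe changed by 1.76 and 1.55. It was far dimmer, with a mean level over the 12 arrays of -4.07, against 4.03 for the second probe. The second probe of NM_001045556 changed by 0.15 and 0.35, against 1.09 and 1.02 for the member probe. The second probe of NM_030915 was at -2.65, -1.62 and -2.44 with vehicle and at -2.52, -0.98 and -1.82 with Dex in S211A cells, a change of 0.47 with overlapping groups, and its change with MDFIC was 0.23. The values of these 3 accessions hold for the member probe only.

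**Figure D5:**
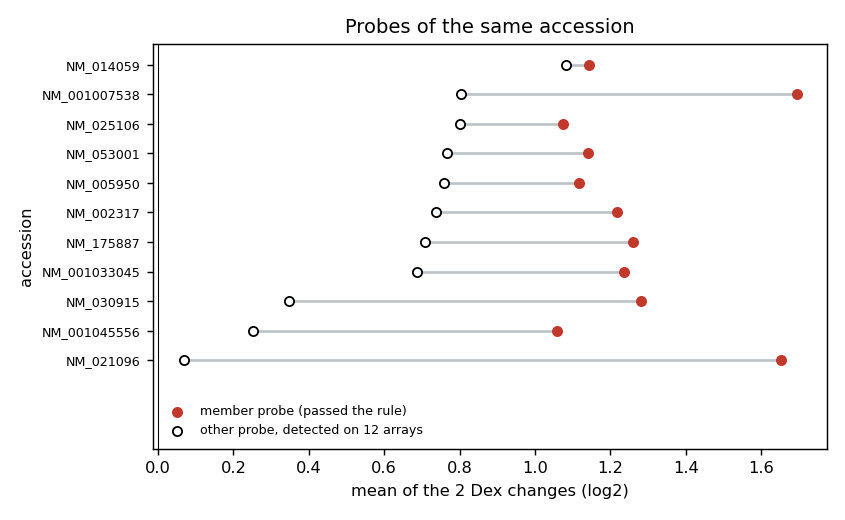
Mean of both Dex changes (log2) of the member probe (red) and of the other probe well above background on all 12 arrays (open) for the 11 accessions that have one. The other probe changed less than the member probe in each, most of all for NM_021096. These other probes are those that missed the threshold, so the rule largely fixes that order.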

How the data were processed

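Total RNA of 12 COS-1 samples, 3 per group by their titles, was labelled with Cy3 and read on 12 one-colour arrays, per the labels' protocols. Each deposited file lists the linear intensity of 45015 spots. Per the file headers it came from Agilent Feature Extraction 12.0.0.7, with the local background subtracted and the signal detrended, and the submitters' processing notes give version 12. The authors' value table repeats this intensity in all 45015 rows, unscaled.

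The processed signal was taken to log2 and each array's 75th percentile over the non-control spots was subtracted. Spots of a probe were averaged. The 945 spots flagged as outliers were dropped in the fits and kept in the choice of members, and no member had one. A probe with several spots counted as well above background only where all of them did. The number of arrays, 3 per group, limits the precision.

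Fits used limma 3.58.1 in R 4.3.3 on the 31224 probes that at least 1 group showed well above background on each of its 3 arrays, with at least 2 values per group, with contrasts of 4 group means, moderated variances and Benjamini-Hochberg adjustment within a comparison, two-sided, called at an adjusted p under 0.05. Intervals are limma's 95% intervals. The fit was tested on simulated data. A member stands for its brightest passing probe over all 12 arrays. Named are the 20 largest mean changes, the 4 nearest the threshold on each side, members called, the 3 largest differences in each direction, and members whose other probe changed by under 0.5. Members and lists were chosen with earlier results of these data known. Alternatives were background correction, scaling, filters, outlier flags, probe choice, slide and replicate blocks, samples in the fit, variance moderation, the threshold, and each array left out. An alternative that asked for any spot well above background was added after seeing the data. Gene lists and marker lists need symbols and were not analysed here, nor were sequences. Figures were drawn with matplotlib 3.10.9.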

Additional observations from a re-analysis of the deposited data

Results flagged for a closer look

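The second probe of NM_021096 moved in opposite directions: each of its 3 Dex arrays lay below the 3 vehicle arrays in S211A cells and above them in S211A+MDFIC cells. The difference between its Dex changes was 0.81 (SE 0.15, 95% interval 0.47 to 1.16), which did not pass the adjusted threshold (limma adjusted p = 0.0883). The member probe of the same accession rose with Dex in both kinds of cells. It was far dimmer, with a mean level over the 12 arrays of -4.07, against 4.03 for the second probe. The cause of the disagreement between the probes was not tested.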

How the results depend on the processing

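Without 1 array the median Dex change of the members was 1.25 to 1.29 in S211A and 1.28 to 1.32 in S211A+MDFIC cells. Quantile normalization, median centring and no scaling gave 63, 61 and 64 accessions, all of them members. Normexp background correction with its offset of 50 gave 35, all of them members. It lowered the median Dex change to 1.01 in S211A and to 1.01 in S211A+MDFIC cells. The part of the offset was not tested apart. Counting a probe with any spot well above background gave 72, and leaving out 1 array gave 69 to 78. No setting called a member for the difference between the Dex responses, with or without the replicate block, which called 36 of all probes there. Under normexp 51 of 71 members had a larger Dex change with MDFIC, with a median difference of 0.09.

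The MDFIC calls depended on the settings. Under vehicle the count of members called was 0 with normexp, with slide as a fixed block and with only the compared groups in the fit, 1 with median centring, without scaling and with the replicate block, 4 without the filter on dim probes and with slide as a random block, and 1 to 3 without 1 array. Under Dex it was 0 with normexp, without scaling, without the filter, with slide as a fixed block, with the replicate block and with only the compared groups, 1 with median centring, and 0 to 2 without 1 array. For same-numbered samples of different groups, the r used to look for pairing was over 0.1 in 4 of 18 pairs (-0.25 to 0.24). It is not the correlation of the levels themselves. Its median was 0.03, against -0.01 for other pairs, so the replicate numbers were not taken as pairs.

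For 11 of the 29 members named with a difference between the Dex responses, its sign turned in some setting, in 39 of 695 values, none called. With normexp it became 0.10 for NM_017434, 0.070 for NM_001216, 0.0062 for NM_005618, -0.033 for NM_018948, 0.089 for NM_021096, 0.15 for NM_145028, 0.077 for NM_080672 and 0.093 for NM_021258. With slide as a fixed block it became 0.25 for NM_017434, 0.034 for NM_001216, 0.10 for NM_001063, -0.075 for NM_001024858, 0.0064 for NM_145028 and 0.085 for NM_080672. With quantile normalization it became 0.0088 for NM_017434, 0.012 for NM_001216 and -0.024 for NM_001024858, and for the last -0.016 with median centring and -0.017 without scaling. Without 1 array it ran from -0.041 to 0.14 for NM_000448, -0.085 to 0.022 for NM_017434, -0.10 to 0.064 for NM_001216, -0.012 to 0.11 for NM_018948, -0.033 to 0.040 for NM_001024858 and -0.12 to 0.0072 for NM_080672. The cause was not tested.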
